A study of Mus musculus with 12 samples.

Results

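The regions described here are ac4C peaks in coding sequence that spanned at least 1 exon junction. They were the rows of the authors' peak table whose class was CDS and whose number of blocks was 2 or more, a block being a stretch of exon and the space between blocks a gap in the genome. The rule used the class and the shape of a peak and no level or difference. It took 6809 of 19049 peaks (35.7%), and 70.8% of the 9624 peaks in coding sequence. The remaining 2815 coding peaks lay in 1 block. The members fell in 4101 genes, and 6798 of them were in genes annotated as protein coding.

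The cells were ID8, a line of mouse ovarian surface epithelial origin that forms ovarian tumours in mice. The groups were control and cisplatin-treated, each with an input fraction and an IP fraction, precipitated with anti-ac4C antibody, in 3 libraries per group and 12 in all. The sources used here give neither the dose nor the duration of treatment. Nothing in the labels says that replicates came from separate cultures, so p-values of input RNA measure the spread between libraries, which may be technical. The authors' p-values of peaks are given over all libraries together. The sources used here do not say whether they measure any spread between libraries.

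N4-acetylcytidine (ac4C) is a cytidine that carries an acetyl group on its base. The acetyltransferase NAT10 places it in RNA, with the adaptor THUMPD1 for tRNA, and in messenger RNA it has been linked to stability and translation of coding sequence. A coding sequence is cut into exons in the genome, and splicing joins them, so a peak called on the transcript can cover the end of one exon and the start of the next. Such a peak appears in genome coordinates as blocks separated by introns.

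The 3 junctions below could be read whole enough to show what a member looks like in the spliced RNA, from RefSeq windows around gene starts on GRCm38.p6, the assembly behind mm10. Bases of both exons could be read over at least 30 positions at 7 junctions. The 3 shown were taken, by judgement and after their values were seen, to lie in coding sequence, and no coding annotation was set against them. The Ubb, Nubp2, Vmp1 and Haus2 junctions are not shown because they may hold untranslated bases. Their log2 differences were -0.502, 0.585, 3.40 and 1.58, with Ubb and Vmp1 called, in the authors' deposited table. Lower case marks the upstream exon and capitals the downstream exon, so the change of case is the junction. The Stat6 sequence joins chr10:127650761-127650834 to chr10:127650953-127651005 on the plus strand across a gap of 118 bases. The Ctdnep1 sequence joins chr11:69988647-69988729 to chr11:69988828-69988863 on the plus strand across 98 bases. The Evpl sequence joins chr11:116225262-116225302 to chr11:116225068-116225160 on the minus strand across 101 bases.
Stat6 junction: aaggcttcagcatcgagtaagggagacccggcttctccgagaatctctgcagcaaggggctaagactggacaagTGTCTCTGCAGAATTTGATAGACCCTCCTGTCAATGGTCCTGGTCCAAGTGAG
Ctdnep1 junction: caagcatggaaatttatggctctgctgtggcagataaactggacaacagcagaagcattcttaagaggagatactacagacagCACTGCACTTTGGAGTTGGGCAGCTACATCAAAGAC
Evpl junction: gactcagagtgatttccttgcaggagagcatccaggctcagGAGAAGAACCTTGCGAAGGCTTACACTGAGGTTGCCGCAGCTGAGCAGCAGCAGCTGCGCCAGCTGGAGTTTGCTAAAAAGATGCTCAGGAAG

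Of the 3 genes, Stat6 encodes a transcription factor of interleukin-4 signalling, Ctdnep1 a phosphatase of the nuclear envelope and Evpl envoplakin, a protein of the cornified envelope. The Stat6 member had 4 blocks, a fold enrichment of 2.43 and a log2 difference of 3.50 with a log10 adjusted p of -14.2, in the authors' deposited table. The Ctdnep1 member had 3 blocks, a fold enrichment of 7.64 and a log2 difference of 2.58 with a log10 adjusted p of -1.88, in the authors' deposited table. The Evpl member had 3 blocks and a log2 difference of -3.10 that missed the threshold, with a log10 adjusted p of -1.03 in the authors' deposited table. The joined sequences were 24.4%, 20.2% and 23.1% cytidine for Stat6, Ctdnep1 and Evpl.

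A motif of repeated cytidines, CNNCNNCNN, has been described in studies of ac4C, and it was searched on both strands with overlapping matches allowed. On the sense strand it started at 5 positions in the Stat6 junction, 3 in Ctdnep1 and 6 in Evpl, and on the antisense strand at 0, 4 and 10. It is a common arrangement of letters, though the background used here was not spliced coding sequence. RefSeq start windows held 250 bases before the annotated start and 50 after it, so their first 127 bases lay upstream of it. Those bases held the motif on the sense strand in 73.3% of 32851 windows and on either strand in 91.5%. A match describes these letters only.

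The next 3 sequences are whole blocks between 2 gaps of a called member, read here as exons because both neighbours are gaps, with every stretch that matched CNNCNNCNN on the sense strand in capitals. The Cdc45 exon is chr16:18795825-18795944 on the minus strand, 120 bases, block 7 of 8. The Kat5 exon is chr19:5609852-5609918 on the minus strand, 67 bases, block 2 of 4. The Nomo1 exon is chr7:46041469-46041569 on the plus strand, 101 bases, block 2 of 4.
Cdc45 exon: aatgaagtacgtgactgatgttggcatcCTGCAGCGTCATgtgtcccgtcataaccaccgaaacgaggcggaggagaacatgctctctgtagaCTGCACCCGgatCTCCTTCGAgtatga
Kat5 exon: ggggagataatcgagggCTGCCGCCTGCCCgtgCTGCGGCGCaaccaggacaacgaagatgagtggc
Nomo1 exon: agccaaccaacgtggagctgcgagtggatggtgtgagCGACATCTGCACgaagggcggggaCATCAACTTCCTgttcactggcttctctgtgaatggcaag

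Cdc45 encodes a subunit of the replicative helicase, Kat5 a histone acetyltransferase and Nomo1 a membrane protein of the endoplasmic reticulum. The Cdc45 and Kat5 members had positive log2 differences of 3.37 and 6.08, and the Nomo1 member a negative one of -2.16, in the authors' deposited table. On the sense strand the motif started at 4 positions in the Cdc45 exon, 3 in Kat5 and 4 in Nomo1, and on the antisense strand at 5, 3 and 4. The 3 exons shown all hold the motif and are not all the readable exons of called members. Fbxw8 held 3 sense and 12 antisense starts at a positive difference of 2.93. Asap2, Dstn and block 2 of the Stat6 member held 0 starts on either strand, at positive differences of 5.91, 1.52 and 3.50. The motif was not tested against the sign of the difference. The first 120, 67 and 101 bases of the start windows held the motif on the sense strand in 71.4%, 51.1% and 65.2%. On either strand the shares were 90.5%, 75.5% and 86.5%. Those first bases too lay upstream of the annotated start.

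The gaps could be read at few ends, since the windows lie only around annotated starts. Of 62 upstream gap ends read, 61 began with GT, the usual first letters of an intron, and 1 with GC. Of 36 downstream gap ends, 28 ended in AG, the usual last letters. The other 8 did not, and 3 of those lay within 10 bases of a RefSeq gene start. The gaps of those 8 do not have the letters of an intron end, and 25 of the 11567 gaps were shorter than 30 bases.

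Most members crossed few junctions. The 2-block form was the most frequent, with 3636 peaks, followed by 2159 of 3 blocks, 646 of 4, 241 of 5 and 127 of 6 to 11. The summed block size had a median of 210 bases (quartiles 179 and 299), while the genomic span had a median of 1942 bases. Gaps had a median of 943 bases. The longest was 229871 bases in Efna5, a ligand of Eph receptors, followed by 115709 in the polarity gene Pard3. Summed sizes lay within 1 base of a multiple of 30 in 93.0% of members and in 95.3% of coding peaks in 1 block. This step belongs to the deposited calls, and the sources used here do not give the window setting behind it.

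Blocks between 2 gaps are enclosed exons wherever both gaps are introns. There were 4758 of them, with a median of 108 bases (quartiles 79 and 143). Lengths that were a multiple of 3, which keep the reading frame when an exon is left out, made up 38.4%, against 31.3% and 30.3% for the other remainders. The smallest block of a member, taken over outer and inner blocks alike, was often short. In 11.8% of members the smallest block had fewer than 10 bases, and in 24.6% fewer than 20, so a member can reach into the next exon by only a few bases.

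**Figure D1:**
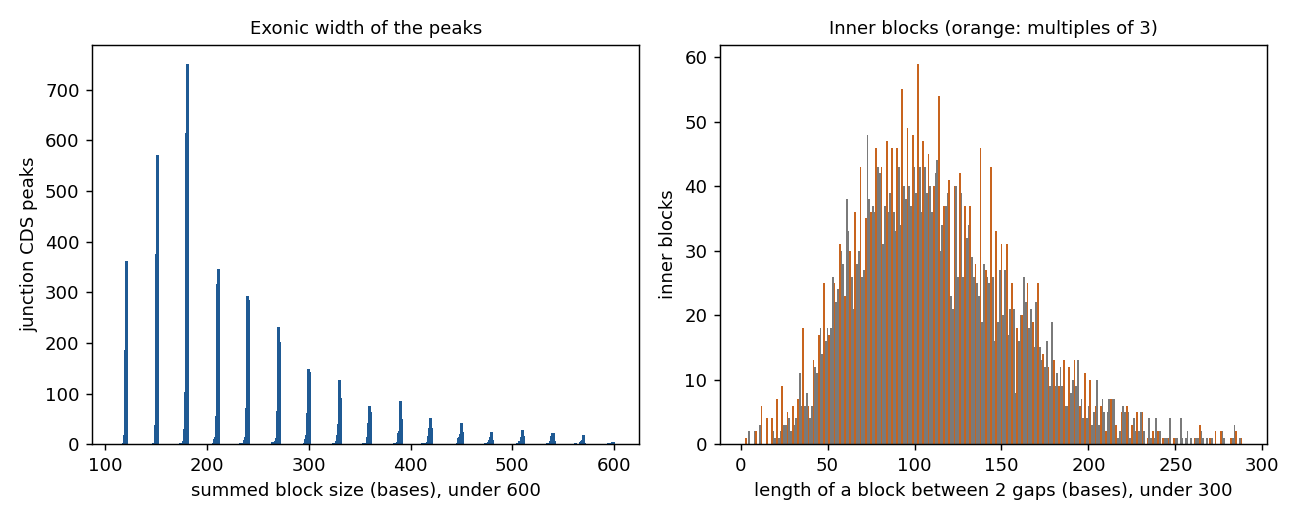
Summed block size of junction CDS peaks (left, x axis in bases, y axis number of peaks, sizes under 600 bases) and length of blocks between 2 gaps (right, x axis in bases, y axis number of blocks, lengths under 300 bases). Summed sizes stand in narrow stacks 30 bases apart, with a median of 210, and inner blocks spread around a median of 108 bases, multiples of 3 in orange.

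The deposited table gives each peak 1 difference between the treatments with its adjusted p, over all libraries together. A positive or negative log2 difference is given here with its sign as deposited, because the file headers do not state which treatment is the numerator and the data did not settle it. IP levels per library were not analysed here. A peak is called where the authors' adjusted p was under 0.05, and fold enrichment is the authors' ratio of IP over input.

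Differences were called in 4070 members (59.8%), against a background of 46.2 percent of all 19049 peaks and 46.7 percent of coding peaks in 1 block, in the authors' deposited table. Positive differences made up 3358 of these (49.3% of members), where the background was 36.5 percent of all peaks and 36.3 percent of 1-block coding peaks. Negative differences numbered 712 (10.5%), where the background was 9.62 percent and 10.4 percent. All peaks include the members, and of the 12240 peaks outside them 38.6% were called, 29.4% positive and 9.16% negative. The members' excess over these backgrounds thus lay mostly in positive differences, while the negative share stood close to the background. The median log2 difference was 1.99 in members and 1.58 in 1-block coding peaks. The median fold enrichment ran the other way, at 5.37 in members, 6.04 in 1-block coding peaks and 7.05 in all peaks. No test was made between these classes, whose peaks share libraries and genes.

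Members with more blocks were called more often, a description with no test. The share was 52.0% at 2 blocks, 63.7% at 3, 77.7% at 4, 79.3% at 5 and 86.6% at 6 to 11. The positive share was 42.0% at 2 blocks and 77.2% at 6 to 11, while the negative share lay between 9.45% and 11.6%. Members with more blocks were also wider and lay in more abundant RNA. The median summed size went from 181 to 631 bases, and the median input level of the gene from 12.5 to 39.2 FPKM (fragments per kilobase of gene, scaled to the library).

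The input level of the gene moved with the calls in the same direction. When all members with an input value were divided into 5 equal groups by the mean FPKM of their gene, the called share was 30.4%, 48.8%, 63.2%, 75.2% and 82.5% from the lowest to the highest. Coding peaks in 1 block within the same FPKM limits were called at 23.3%, 42.7%, 50.3%, 68.8% and 80.0%, below the members in each group. Within the lowest group the share was 24.9% at 2 blocks, 36.2% at 3 and 54.5% at 4 or more. Within the highest group it was 78.8%, 82.1% and 90.4%. The negative share of members was 6.43% in the lowest group and 15.8% in the highest.

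Width moved with the calls as well. At summed sizes of 120 or 121 bases 32.4% of members and 27.9% of 1-block coding peaks were called. At 150 or 151 bases the shares were 41.2% and 31.1%, and at 180 or 181 bases 49.7% and 45.3%. At 210 or 211 bases they were 65.0% and 58.4%, and at 240 or 241 bases 67.6% and 61.0%. Members stood above 1-block peaks of the same width by less than they did over all widths, with the widest gap at 150 or 151 bases. The part that depth, width and blocks each play in the calls was not tested.

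**Figure D2:**
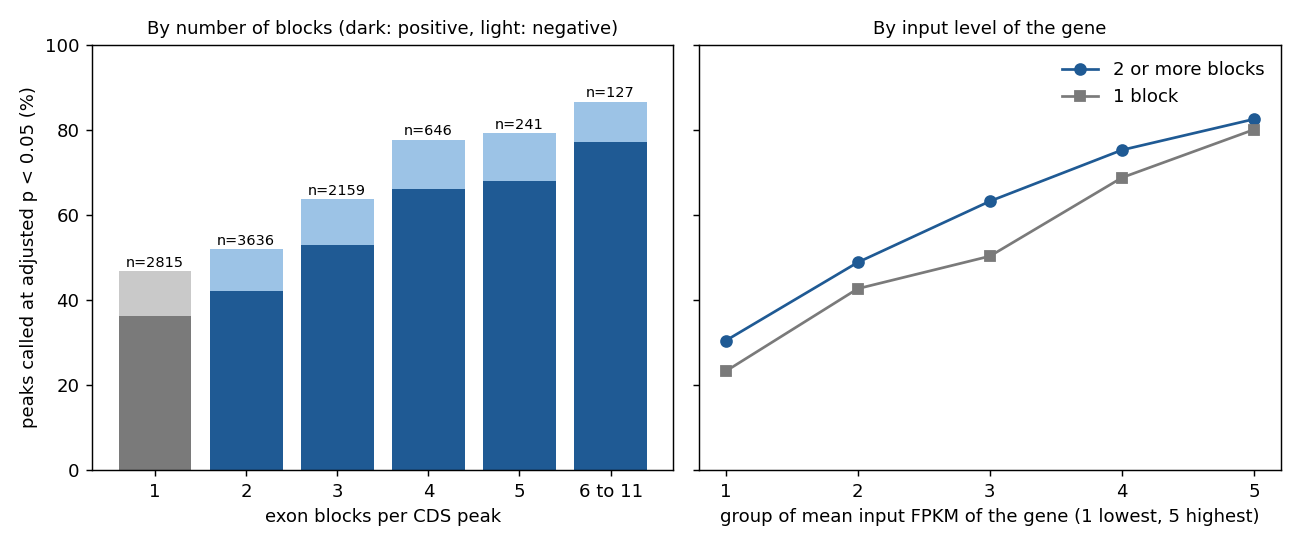
Share of coding peaks called at an adjusted p under 0.05 in the authors' deposited table (y axis, percent), by number of blocks (left; 1 block in grey, 2 or more in blue, dark for positive and light for negative differences, n above each bar) and by 5 equal groups of the mean input FPKM of the gene (right, 1 lowest and 5 highest). The share goes from 52.0% at 2 blocks to 86.6% at 6 to 11, and members lie above 1-block peaks in each group.

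Called members came from more abundant RNA than the rest. The median input level of their genes was 20.7 FPKM, against 8.26 FPKM for members not called. Some values were repeated many times: log2 differences of exactly 1.00 stood in 224 members, 1.58 in 183 and 2.58 in 83, which are the logarithms of small whole numbers. Differences of the size of log2 of a whole number from 2 to 6 occurred in 694 members, of which 39 were called, and their genes had a median of 4.39 FPKM. At the other end, 18 members shared the lowest deposited log10 adjusted p, -434, and have no order among themselves. Of those, 13 had negative and 5 positive differences, in the authors' deposited table.

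**Figure D3:**
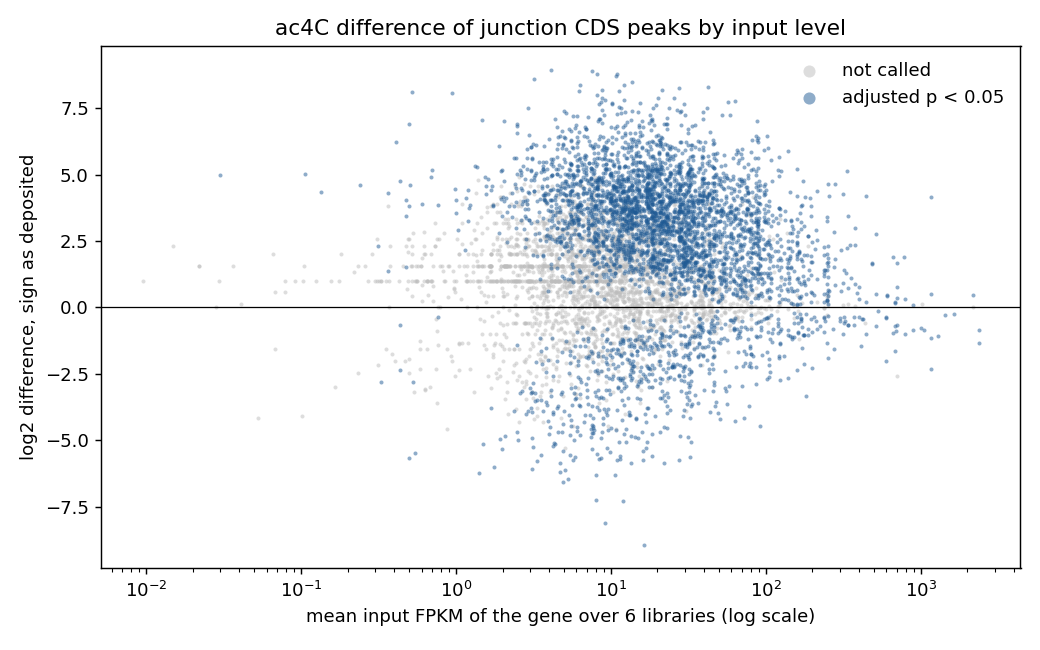
Log2 difference of each junction CDS peak (y axis, sign as deposited) against the mean input FPKM of its gene over 6 libraries (x axis, log scale), called peaks in blue and others in grey. Most called peaks lie above 0, with 3358 positive and 712 negative, and grey points at low FPKM line up at 1.00 and 1.58.

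The members with most blocks show how far 1 peak can run along a message. All 16 members of 8 or more blocks were called, 15 positive and 1 negative. Leaving out the predicted gene Gm45736, and ordering peaks of equal block number by the authors' peak p, the first 5 are given. The longest chain of blocks was in Ankrd52, which encodes a subunit of a phosphatase complex, with 11 blocks and 1257 bases at chr10:128379550-128383967 and a log2 difference of 1.62. Scpep1, a serine carboxypeptidase, held 10 blocks with a negative difference of -0.59. The polarity gene Scrib held 9 blocks and a difference of 2.17. Nsun2, which encodes an RNA cytosine methyltransferase, held 8 blocks of 74 to 268 bases at chr13:69621579-69630895, with a fold enrichment of 27.2 and a difference of 2.47. Abcf2, an ATP-binding cassette protein, also held 8 blocks, with a difference of 2.40. All values are from the authors' deposited table.

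The highest fold enrichments among genes of at least 1 FPKM were in Clspn, Atic, Tbl3, Gtf3c1 and Rpl21. Clspn encodes claspin, an adaptor of the replication checkpoint, and its 6-block member at chr4:126563826-126572384 had a fold enrichment of 259 and a log2 difference of 3.25. Atic, an enzyme of purine synthesis, had 248 and a difference of 3.90 over 5 blocks. Tbl3, a ribosome assembly factor, had 232 over 7 blocks, and its difference of 0.26 was not called in the authors' deposited table. Gtf3c1, a subunit of the RNA polymerase III factor TFIIIC, had 160 with a difference of 2.40. The ribosomal protein gene Rpl21 had 153 with a difference of 1.09. A very high ratio can come from few input fragments in the peak, and input counts per peak were not analysed here.

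The most positive called differences in genes of at least 1 FPKM were 8.95 in Togaram1, 8.89 in Tnrc6b, 8.78 in Tcirg1 and R3hcc1l and 8.72 in Zfc3h1. Tnrc6b encodes a partner of Argonaute in microRNA silencing, and Tcirg1 a subunit of the vacuolar proton pump. The most negative were -8.92 in Sertad4, -8.11 in Soga1, -7.29 in Evc, -7.23 in Decr2 and -6.57 in Nav2. Evc encodes a ciliary protein of Hedgehog signalling, and Decr2 a peroxisomal enzyme of fatty acid oxidation. Of these 10 members, 6 had 2 blocks, 3 had 3 and 1 had 4, and their summed sizes ran from 119 to 421 bases. Their genes lay between 3.04 and 19.4 FPKM over the input libraries. All values are from the authors' deposited table.

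Large multi-exon genes carried the most members. Dync1h1, the heavy chain of cytoplasmic dynein, had 16, of which 12 were called positive and 1 negative, with differences from -0.56 to 6.24. Ubr4, an E3 ubiquitin ligase, had 15, with 9 positive, 3 negative and a range from -2.87 to 4.97. Trrap, a scaffold of histone acetyltransferase complexes, had 12, with 8 positive and 1 negative. The laminin chain gene Lama5 had 11, with 6 positive and 2 negative, from -3.64 to 5.04. Mdn1, an ATPase of ribosome assembly, also had 11, with 4 positive and 0 negative.

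The 2 signs could alternate along 1 message. In Dync1h1 the first 2 members from the 5′ end stood at 4.57 and 6.24, the third at -0.0037 without a call and the fourth at -0.56. In Ubr4 the member with -2.87, at chr4:139422500-139423883, lay between neighbours at 4.01 and 4.97. In Lama5 the members with -3.38 and -3.64 were the second and the fifth from the 5′ end, and those at 3.56, 2.94 and 5.04 followed. In Trrap the last member, at chr5:144857425-144858729, was at -2.16 after 3.91 in the one before it. All are values of the authors' deposited table.

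**Figure D4:**
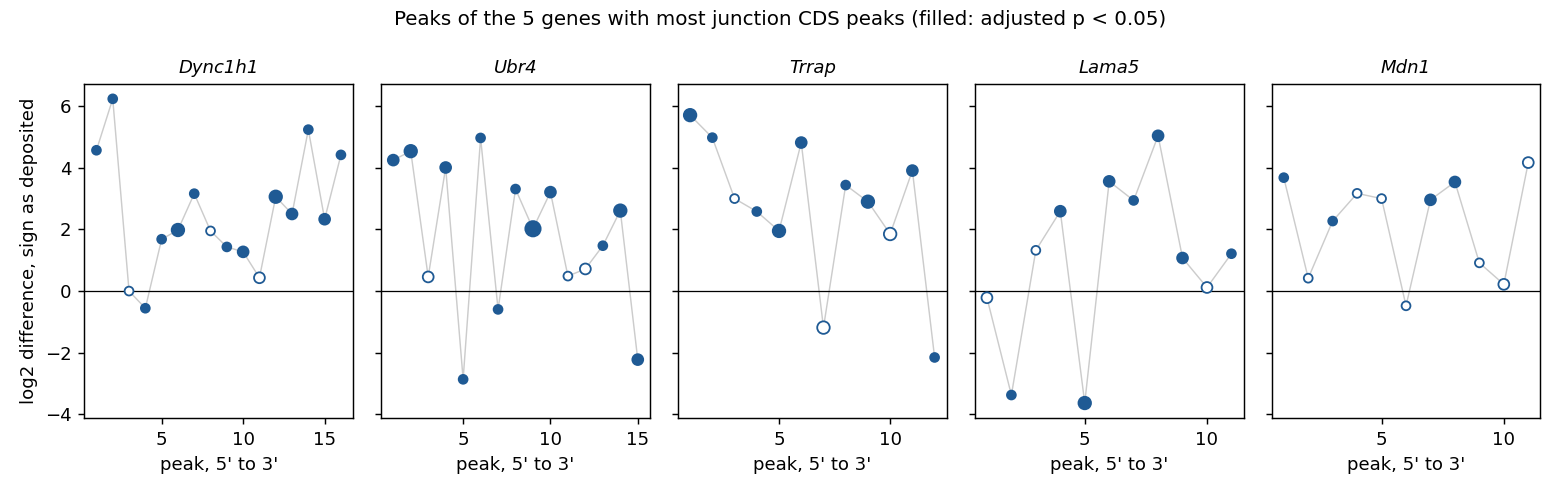
Log2 difference (y axis, sign as deposited) of each junction CDS peak in the 5 genes that hold most of them, in order from 5′ to 3′ (x axis); filled points were called at an adjusted p under 0.05, and larger points have more blocks. Dync1h1 ranges from -0.56 to 6.24 and Lama5 from -3.64 to 5.04.

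Mixed signs were not limited to those genes. There were 1563 genes with at least 2 members, and 858 genes with at least 2 called. Of the 858, all called members were positive in 556 (64.8%) and negative in 25, and both signs occurred in 277 (32.3%). Other peaks of the same genes were set beside the members. In 427 genes with a called member and a called 1-block coding peak, taking the median difference of the called peaks of each kind, both were positive in 301 and both negative in 23. The member was positive and the other peak negative in 64, and the reverse held in 39. By the same medians, 85.5% of the members' and 79.6% of the other peaks' values were positive, and no test was made. In 652 genes with a called member and a called peak in the 3′ untranslated region, the counts were 441, 21, 112 and 78 in the same order. Along the gene span, members had a median position of 66.7% from the 5′ end, 1-block coding peaks 71.8% and peaks of the 3′ untranslated class 95.7%.

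The counts by list that follow stand against 59.8% of all members called, 49.3% positive and 10.5% negative. Grouped by the role of the protein, the machinery of translation held members with calls of both signs. Of 61 listed cytosolic ribosomal protein genes, 25 had members, and 25 of their 30 members were called, 14 positive and 11 negative, at a median of 260 FPKM. The negative ones ran from -0.24 to -0.88, with a median of -0.66. The positive ones ran from 0.19 to 5.66 in Rpl18, with a median of 0.99. Over all members, called negative differences had a median of -2.02 and called positive ones a median of 3.485, so both medians of this list were the smaller in size. Rplp0, a protein of the ribosomal stalk, had -0.76 over 5 blocks, and Rps4x, of the small subunit, had 1.69 over 3 blocks. These are values of the authors' deposited table.

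Initiation and elongation factors were called in 46 of 47 members, 33 positive and 13 negative, in 24 of 40 listed genes. The 3 with the smallest adjusted p were all negative: -2.02 in Eef2, the translocase of elongation, -1.33 in Eef1a1, which delivers aminoacyl-tRNA, and -1.14 in Eif3a, a scaffold of initiation. The Eef1a1 member had the largest summed block size of all, 1514 bases in 2 blocks at chr9:78478657-78480223. Aminoacyl-tRNA synthetases, which load tRNA, had 22 of 29 members called, 20 positive and 2 negative. Among them Vars reached 5.03 over 5 blocks, Gars 3.87 and Aars 3.84. All differences are from the authors' deposited table.

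Genes of protein folding and breakdown followed with 23 of 25 chaperone members called, 15 positive and 8 negative. The cytosolic chaperone Hspa4 had 3.73 and the chaperonin subunit Cct8 3.64 over 7 blocks. Hspa5, the main chaperone of the endoplasmic reticulum, had -1.45. Proteasome subunits had 20 of 22 members called, 16 positive and 4 negative. Psma3 of the core particle stood at 6.22, and of the regulatory particle Psmd7 stood at 2.05 and Psmd1 at -2.28. The Psma3 member was weakly enriched, with a fold enrichment of 1.25, against 4.22 in Psmd7, 2.30 in Psmd1 and a median of 5.37 over members. All are from the authors' deposited table.

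Splicing genes had 46 of 52 members called, 39 positive and 7 negative. Srsf11, an SR-rich splicing protein, had 3.86 and the RNA-binding protein gene Hnrnpc 2.55. Hnrnpa1, a repressor of exon inclusion, had -0.98 at the lowest deposited adjusted p. The list of actin, myosin and cross-linker genes held the most members of any list, 107 in 24 genes, with 73 positive and 13 negative. Its median input level of 88.8 FPKM and its highest difference of 6.24 are those of Dync1h1, a dynein gene with 16 members. The list is therefore read as holding that gene, and its counts are not of actin and myosin genes alone. The actin cross-linker Actn4 had 2.37 over 7 blocks and Vcl, vinculin of cell adhesions, 2.32 over 7 blocks, whereas the filamin Flnc had -4.14. Matrix genes had 45 of 70 members called (64.3%), near the 59.8% of all members, 34 positive and 11 negative. Among them were the basement membrane collagens Col4a1 at 1.36 and Col4a5 at 5.10, both weakly enriched, with fold enrichments of 1.36 and 1.35. All are from the authors' deposited table.

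Replication and repair genes, which act on platinum-damaged DNA among other things, had 53 of 83 members called (63.9%), near the 59.8% of all members, 45 positive and 8 negative. The helicase subunit Mcm6 had 2.93 over 7 blocks and Mcm4, of the same ring, -2.18 over 3. Ddb1, a damage-binding adaptor of a ubiquitin ligase, had 2.31. Listed p53 targets had 15 of 23 members called (65.2%), also near that share, 14 positive and 1 negative. Of these, Zmat3, an RNA-binding protein, had 7.32, Ccng1, cyclin G1, 3.73 and the receptor tyrosine kinase Epha2 3.25. All are from the authors' deposited table.

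The TGF-beta pathway, which the study's title names, had 18 of 28 members called (64.3%, against 59.8% of all members), 13 positive and 5 negative, in 17 of 34 listed genes. Among ligands, Tgfb3 had 1 member at 4.80. The type I receptor Tgfbr1 had -0.78, and the type II receptor Tgfbr2 had 2 members at -1.0 and -1.45, the latter with a fold enrichment of 33.3. The bone morphogenetic protein receptor Bmpr1a had 7.67, the signal transducer Smad3 4.02 and the repressor Skil 5.80. No member lay in Nat10, Thumpd1, Tgfb1, Tgfb2, Tgfbr3 or Cd274. All are from the authors' deposited table.

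Metabolic genes showed both signs. Cholesterol and fatty acid synthesis had 19 of 25 members called, 12 positive and 7 negative. The desaturases Scd2 and Scd1, which make monounsaturated fatty acids, were negative in the members with the smallest adjusted p, with -2.29 in Scd2 and -1.91 and -1.81 in Scd1. Central carbon metabolism had 29 of 40 members called, 21 positive and 8 negative. Ldha, lactate dehydrogenase, had -1.53, the pyruvate kinase gene Pkm -0.67 over 6 blocks, and Sdha of complex II -2.65. All are from the authors' deposited table. Over the lists with members, the called share ran from 63.9% for replication and repair, at a median of 18.4 FPKM, to 97.9% for translation factors, at 249.5 FPKM. The part of the input level in this was not tested.

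The question of whether the RNA itself differed was put to the input libraries. On log2(FPKM + 1), limma compared 3 cisplatin with 3 control input libraries over 11449 genes that reached 1 FPKM in at least 3 libraries. Of 3888 member genes tested, 1648 were higher after cisplatin (42.4%) and 1491 lower (38.3%), at an adjusted p under 0.05. The background over all genes tested was 40.1 percent higher and 41.1 percent lower, or 81.3 percent in either direction. Replicates of a group correlated at 0.989 to 0.996 and libraries of different groups at 0.833 to 0.847. On the log2(FPKM + 1) scale, 265 member genes were called at least 2-fold higher (6.82%) and 240 at least 2-fold lower (6.17%), against 10.8% and 13.1% of all genes tested. The split depended on scale, since giving all libraries the same sum turned it to 1439 higher and 1745 lower. In bulk RNA, fewer cells of a type and less RNA per cell cannot be told apart.

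Several genes with long or strong members were higher after cisplatin. Nsun2 had 29.6, 29.2 and 28.7 FPKM in control and 58.5, 61.5 and 58.6 in cisplatin libraries. Clspn had 14.0, 14.0 and 14.3 in control and 28.0, 28.0 and 30.3 FPKM after cisplatin. The groups did not overlap in either gene, and limma gave log2 changes of 1.00 ± 0.03 (SE; adjusted p = 3.12e-07) and 0.98 ± 0.04 (SE; adjusted p = 7.68e-07). Atic, Tbl3 and Mdn1 changed by 0.90, 1.13 and 0.90 on the log2 scale in limma, also without overlap. Groups of 3 did not overlap in 84.2 percent of all genes tested, 41.8 percent with cisplatin above and 42.4 percent with cisplatin below, so separation of the groups is the usual case here.

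The p53 targets with the strongest members were also higher. Ccng1 went from 30.4, 29.9 and 29.2 FPKM in control to 116, 116 and 132 FPKM after cisplatin, a log2 change of 1.99 ± 0.06 (SE; limma adjusted p = 1.56e-07). Epha2 went from 49.2, 49.3 and 49.1 to 131, 130.4 and 128 FPKM, a change of 1.38 ± 0.03 (SE; limma adjusted p = 6.31e-08). Zmat3 went from 3.53 ± 0.08 to 6.75 ± 0.05 FPKM (SD, n = 3). Every cisplatin library lay above every control library in these genes, and of 37 listed p53 targets tested, 30 were called higher and 5 lower, against 40.1% and 41.1% of all genes tested.

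Genes with negative members did not share 1 direction in the input. Hnrnpa1 had 488, 489 and 486 FPKM in control and 1117, 1040 and 1144 FPKM after cisplatin, a log2 change of 1.17 (limma adjusted p = 4.56e-07). Hspa5 had 531, 520 and 518 in control and 300.1, 288 and 329 FPKM after cisplatin, a change of -0.77 (limma adjusted p = 5.72e-06). Scd2 had 242, 240.4 and 238 in control and 160.3, 156 and 148 FPKM after cisplatin, a change of -0.63 (limma adjusted p = 2.84e-06). The first was higher and the other two lower in every cisplatin library, and all 3 had negative peak differences.

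Similar contrasts occurred among positive members. Col4a5 fell from 42.7 ± 1.42 to 21.2 ± 1.63 FPKM (SD, n = 3) and Smad3 from 31.4 ± 0.13 to 19.2 ± 0.87 FPKM, with log2 changes of -0.98 and -0.68 in limma (adjusted p = 3.35e-06 and 3.19e-06). Both had positive peak differences. Skil, also positive, rose by 0.65 on the log2 scale (limma adjusted p = 1.37e-05). Of the other TGF-beta genes, the receptor Tgfbr1 rose by 0.69 and the ligand Tgfb3 fell by 0.38, with limma adjusted p of 1.84e-05 and 2.65e-05. Tgfbr2 had 22.4 ± 0.36 FPKM in control and 20.2 ± 1.10 after cisplatin (SD, n = 3), and its limma adjusted p of 0.021 became 0.057, 0.078 and 0.070 without control replicate 1, control replicate 2 or cisplatin replicate 1.

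**Figure D5:**
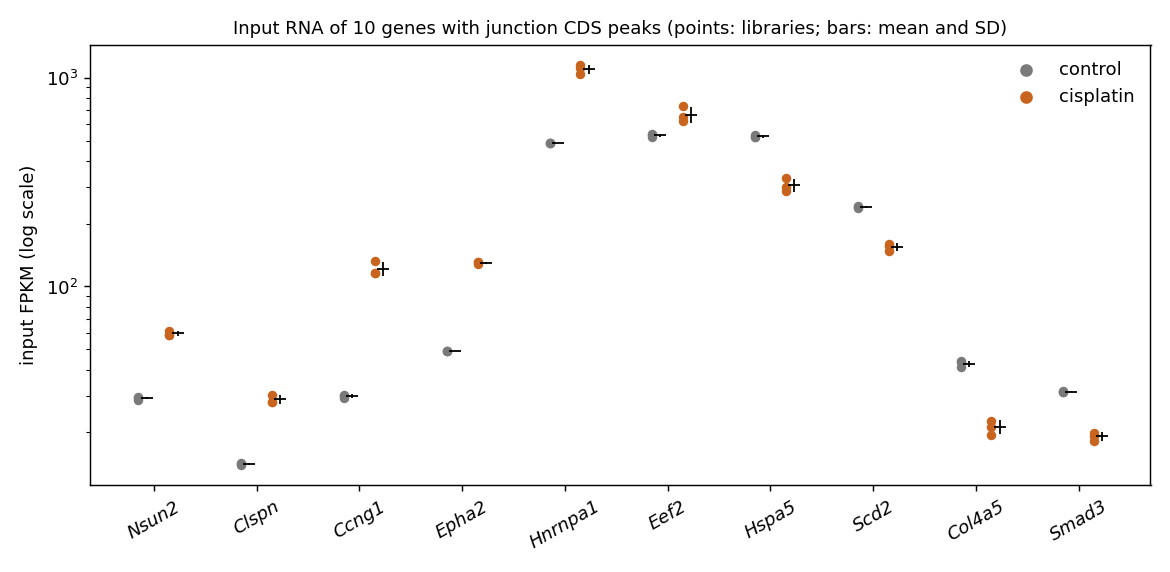
Input FPKM (y axis, log scale) of 10 genes with junction CDS peaks (x axis) in 3 control (grey) and 3 cisplatin (orange) libraries; points are libraries, and horizontal marks with bars are the mean and SD. Nsun2, Clspn, Ccng1, Epha2, Hnrnpa1 and Eef2 lie higher after cisplatin and Hspa5, Scd2, Col4a5 and Smad3 lower; the limma call of Eef2 ended under quantile normalization.

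Set side by side over genes, the direction of the peak and of the RNA gave all combinations. Among 2079 genes whose called members were all positive, 904 were higher in input (43.5%), 738 lower (35.5%), 391 not called and 46 not tested. Among 377 genes whose called members were all negative, 142 were higher (37.7%), 153 lower (40.6%), 73 not called and 9 not tested. Among 277 genes with both signs, 110 were higher and 99 lower. Over all member genes tested the shares were 42.4% and 38.3%, and those of the positive and the negative genes stood near them. The latter shares also count the 46 and 9 genes not tested, which makes them slightly lower. Asking for at least 2-fold in both measures gave fewer genes and a wider split. Of the positive genes, 121 were then higher and 72 lower, and of the negative genes 14 were higher and 31 lower. Over all member genes tested, 265 were at least 2-fold higher and 240 at least 2-fold lower. No test was made on these counts. Over 6684 members, the rank correlation of the peak difference with the gene's log2 change in the authors' deposited table was 0.0062, where members of 1 gene share the gene's value and both measures share the input libraries.

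The following genes were among the 3 with the largest peak differences of their combination, taken from genes with a mean of at least 5 FPKM, a limit that left out Togaram1 and Nav2 among others, so nothing is read from their levels. Usp47, a deubiquitinase, had a member at 8.49 and an input change of -0.12, and Trim33, a ligase that acts on Smad4, one at 8.37 with -0.85. Their fold enrichments were 1.56 and 70.5. Ltn1, a ligase of ribosome quality control, had 8.39 with an input change of 0.18. Dip2b and Rtf1 had members at -6.46 and -6.32 with input changes of -0.52 and -0.25. Sertad4, Soga1 and Decr2 had, above the same limit, the most negative members in genes whose input rose, by 0.46, 0.35 and 0.33 on the log2 scale (limma). The input calls of Usp47, Eef2, Evc, Ltn1, Vcl, Lama5 and Actn4 each ended under at least 1 other setting or without 1 library.

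Depth and identity of the libraries were as follows. FPKM values were whole multiples of 1 fragment, which gave 20682920 to 30159427 fragments per input library, with a median of 8901 fragments per member gene over the 6 libraries together. Keratin genes of ovarian surface epithelium were abundant, with Krt8 at 575 to 594 FPKM in control and 926 to 996 after cisplatin, Krt18 at 466 to 477 and 841 to 928, and Krt19 at 753 to 763 and 940 to 1103, while Krt7 stayed under 0.27. The mesothelial marker Msln had 134 to 138 FPKM in control and 145 to 155 after cisplatin, Wt1 44.3 to 46.3 and 11.7 to 12.8, and Upk3b 79.6 to 83.0 and 55.8 to 65.1, so the markers of this cell type did not all move one way. Of markers of leukocytes, endothelium and fibroblasts, Ptprc, Cd3e, Pecam1, Cdh5 and Lum were not listed in the expression table used here. Of those listed, Cd68 was at 2.22 to 2.57 FPKM in control and 7.50 to 9.72 after cisplatin, Pdgfra at 6.13 to 6.68 and 1.85 to 2.15, and Dcn at 12.5 to 13.1 and 8.98 to 10.9. The part of these markers in the members' values was not tested.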

How the data were processed

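Total RNA was depleted of ribosomal RNA and fragmented before the IP, per the labels' protocols. Tools named in the submitters' processing notes are HISAT2, HOMER, FastQC and fastp, with the build mm10 and no versions. The sources used here do not give the peak caller. Per the file headers, the deposited expression table holds the authors' FPKM, log2 fold change and p-values for 6 input libraries. The deposited peak table holds, per the file headers, the authors' fold enrichment, which is a ratio, the log10 of p and adjusted p, given as scores, and a log2 difference. Its start coordinates were converted to count from 1.

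Peaks were described by the authors' calls, and no test was made on them. Genes that reached 1 FPKM in at least 3 input libraries were compared by limma 3.58.1 (R 4.3.3, lmFit and a trended eBayes) on log2(FPKM + 1), a pseudocount of 1, which understates changes of low genes, with Benjamini-Hochberg adjustment at 0.05. Every adjusted p of input RNA is from limma. Fragments were recovered as the smallest whole multiples within 0.0001. Sequences and gene starts came from RefSeq tables of GRCm38.p6. Members, the 14 lists and alternatives were chosen with earlier results of these data known. Named peaks were chosen by rule. They were the extremes of blocks, enrichment and difference, the 5 genes with most members, and up to 3 peaks per list by adjusted p. The TGF-beta ligands and receptors, and 3 genes per combination of peak and input direction, were also taken. Junctions and exons with a sequence were some of those readable, and the named gaps were the longest. Python 3.11.15 with numpy 2.4.6, pandas 2.3.3 and matplotlib 3.10.9 did the rest.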

Additional observations from a re-analysis of the deposited data

How the results depend on the processing

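Counts of called members stayed within 1.5 times of the reported ones in the settings tried except 1. With 1 peak per gene, the one of highest fold enrichment, 2330 of 4101 were called, 1897 positive and 433 negative. Fewer peaks were counted there, and the called share was 56.8%, against 59.8% of all members. At an adjusted p of 0.01, 3451 members were called. With a log2 difference of at least 1 in addition, 3716 were called, and 85.0% of them were positive against 82.5%. The settings added after seeing the data, gaps of at least 30 bases and genes of at least 1 FPKM, left 4055 and 3983 called. Asking for a 2-fold change in both peak and input lowered the combinations. They went to 121 positive and higher, 72 positive and lower, 14 negative and higher and 31 negative and lower. For their size, the higher and lower counts stood further apart there than in the main setting. Leaving out 1 library gave 1543 to 1625 member genes higher and 1320 to 1513 lower. Quantile normalization gave 1533 higher and 1631 lower, the opposite order. Same-numbered control and cisplatin input libraries shared little deviation from their group means, with correlations of 0.097, -0.12 and 0.043. Such values cannot settle whether the numbers pair the samples. A fit with the replicate block gave 1637 higher and 1461 lower. Of 60 genes named for input RNA, 21 changed call in at least 1 of 13 settings. Under quantile normalization the log2 change turned to -0.024 in Rpl21, -0.18 in Ubr4, -0.016 in Dync1h1, -0.031 in Hspa4, -0.081 in Actn4, -0.15 in Ddb1 and -0.16 in Pkm, and the cause was not tested. Peaks have no value per library here, so no library could be left out of them.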
